A study of Mus musculus with 37 samples.

Results

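RNA on the ribosomes of podocytes was set beside total RNA of the whole kidney, gene by gene, in 6 of the 37 libraries of the series. The 6 libraries were taken by label: 5 podocyte libraries (TRAP 1 to TRAP 5) and 1 whole-kidney library, all from eNOS-/- mice of the C57BL/6 strain at 3 months of age that the labels call normal and that do not carry db/db. The genotype eNOS-/- names a knockout of the endothelial nitric oxide synthase gene, Nos3, and no library here is labelled wild type. Nos3 was nevertheless counted in all 6, at 2.80, 2.08, 3.67, 5.08 and 3.89 CPM in TRAP 1 to 5 and at 4.64 CPM in kidney. The labels do not give the deleted part of the gene, so these counts over the whole gene do not check the genotype. The labels give podocyte as the cell type of the TRAP libraries and renal cells for the kidney library. The other 31 libraries are TRAP RNA from diabetic mice (eNOS-/- db/db, or given streptozotocin) and from other controls, and serve only where a gene is followed beyond this comparison. There was 1 kidney library, so nothing here carries a test. Each gene is described by its ratio and by whether the kidney value lay outside the range of the 5 TRAP libraries.

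Podocytes are the epithelial cells that cover the outer wall of the glomerular capillaries. Their interlocking foot processes are bridged by the slit diaphragm, a cell junction built around nephrin, and rest on a basement membrane that they lay down together with the endothelium. They are a small minority of kidney cells, and most kidney RNA comes from the tubules. Translating ribosome affinity purification (TRAP) expresses a tagged ribosomal protein in 1 cell type and pulls its ribosomes down with the messenger RNA on them. The labels give neither the transgene nor the tag, nor whether the 5 TRAP libraries came from separate animals. TRAP and kidney libraries differed both in the cells sampled and in the kind of RNA, ribosome-bound or total, and the part of each in a ratio cannot be told apart. In such bulk samples fewer cells of a type and less RNA per cell cannot be told apart either.

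Levels are given in CPM, the share of a library's counts that a gene took, scaled to the same total for every library. The ratio of a gene is the mean TRAP level over the kidney level, each with 0.5 CPM added, so that ratios of weakly expressed genes are understated. Library totals were 28033680 counts in kidney and 19905606 to 28870716 in TRAP. In kidney 23018 genes had a count, and in the TRAP libraries 19140 to 20606. Between pairs of TRAP libraries log levels correlated across genes at 0.977 to 0.987, and between TRAP and kidney at 0.863 to 0.903. Genes are not independent replicates, so this is a description only. Genes that averaged at least 1 CPM over both kinds of library numbered 13820 of the 32108 in the table. For these the median ratio was 1.02, and the middle 90% of genes lay between 0.437 and 3.61.

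The distribution was lopsided. A ratio of at least 4, with the kidney below all 5 TRAP libraries, was met by 620 genes (4.49% of those tested), while a ratio of 1/4 or less, with the kidney above all 5, was met by 59 (0.427%). At 16-fold the counts were 172 (1.24%) and 2 (0.0145%), and at 64-fold 30 (0.217%) and 0. The 59 became 108 with a pseudocount of 0.1 CPM and 34 with 2 CPM. At 2-fold, 1464 genes were higher in TRAP (10.6%) and 1252 lower (9.06%). With totals that leave out 18S and mitochondrial genes this split turned, to 1259 higher and 1876 lower, while a pseudocount of 2 CPM gave 1248 higher and 740 lower. Over all 25676 genes with a count, weak ones included, the kidney lay below all TRAP libraries for 20.8%, above for 32.6% and inside for 46.7%. On that wider base 6.07% were at least 2 times higher and 5.67% lower, and 2.45% were at least 4 times higher and 0.23% lower. Of the 172 genes past 16-fold, 164 coded for proteins and 27 stood in the podocyte lists used here. The 59 genes past 1/4 were of another kind, with 16 genes of the mitochondrial chromosome, 11 small structured RNAs annotated as misc_RNA, 9 unprocessed pseudogenes and 16 nuclear protein-coding genes. The 172 genes together took 0.191% of the counts in kidney and 9.30, 9.81, 8.82, 6.08 and 8.19% in TRAP 1 to 5.

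**Figure D1:**
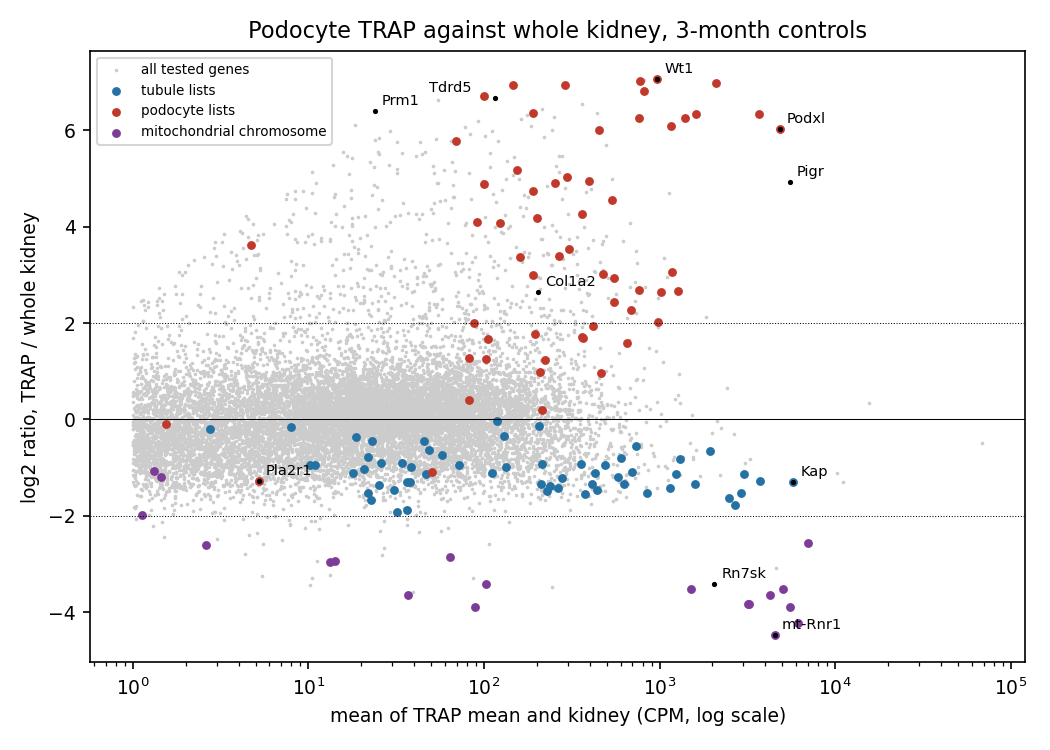
Each grey point is 1 of 13820 tested genes, with the mean of the TRAP mean and the kidney level in CPM on a log axis against the log2 ratio of TRAP over kidney. Dotted lines mark 4-fold; podocyte genes (red) reach above 6 on the log2 scale, tubule genes (blue) lie between 0 and -2, and 16 of the 59 genes below -2 that were called lower lie on the mitochondrial chromosome.

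The promoters of 3 strongly enriched genes and 1 depleted gene are shown as examples of the windows searched for motifs. The 3 are the first in rank among the 20 highest ratios whose window is in RefSeq and free of coding-gene exons. They are the 250 bases before the transcription start in RefSeq (GRCm38.p6), 5′ to 3′ on the strand of the gene, with CG dinucleotides in capitals. Ptpro (chr6:137252049-137252298, plus strand), Crb2 (chr2:37775999-37776248, plus strand) and Lmx1b (chr2:33641099-33641348, minus strand) were among the 20 genes with the highest ratios. Slc34a1 (chr13:55399398-55399647, plus strand), the phosphate transporter of the proximal tubule, was added after its values were seen, as an abundant gene that was lower in TRAP.
Ptpro: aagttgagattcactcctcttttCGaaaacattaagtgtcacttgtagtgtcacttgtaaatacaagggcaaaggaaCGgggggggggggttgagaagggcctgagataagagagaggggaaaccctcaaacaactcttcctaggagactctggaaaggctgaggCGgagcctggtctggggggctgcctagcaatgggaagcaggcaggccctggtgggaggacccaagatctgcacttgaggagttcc
Crb2: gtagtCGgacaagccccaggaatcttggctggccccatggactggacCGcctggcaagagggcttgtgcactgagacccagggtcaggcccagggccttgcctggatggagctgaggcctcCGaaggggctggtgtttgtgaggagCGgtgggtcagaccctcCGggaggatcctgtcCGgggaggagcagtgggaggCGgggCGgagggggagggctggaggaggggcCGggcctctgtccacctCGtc
Lmx1b: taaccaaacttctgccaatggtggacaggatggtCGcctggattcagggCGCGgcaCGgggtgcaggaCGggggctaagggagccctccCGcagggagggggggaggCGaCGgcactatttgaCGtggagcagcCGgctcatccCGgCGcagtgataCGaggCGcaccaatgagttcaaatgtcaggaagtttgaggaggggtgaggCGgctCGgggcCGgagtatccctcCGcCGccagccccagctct
Slc34a1: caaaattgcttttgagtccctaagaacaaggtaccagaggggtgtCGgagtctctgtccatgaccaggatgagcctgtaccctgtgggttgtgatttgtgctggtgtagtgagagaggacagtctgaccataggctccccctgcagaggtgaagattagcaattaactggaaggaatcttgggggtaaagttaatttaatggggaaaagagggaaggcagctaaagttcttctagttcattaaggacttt
Ptpro had 3 CG dinucleotides in this window, Crb2 had 10, Lmx1b 19 and Slc34a1 1. The other exon-free windows among the 20 highest ratios, of Mgat5b and Srgap1, had 25 and 35. Over all 10004 tested genes with a RefSeq promoter the median was 16. It was 15 for the 444 matched genes at least 4 times higher in TRAP, 13 for the 129 at least 16 times higher in TRAP and 6 for the 813 matched genes at least 2 times lower. The median GC content was 61.2% for those past 16-fold and 54.8% for those at least 2 times lower. The E-box CAGCTG, which reads the same on both strands, was present in 11.9% of all windows, in 17.1% of those past 16-fold (22 of 129) and in 13.3% of those at least 2 times lower. The motif GCGTGGG, searched on both strands and known to be bound by EGR and WT1 proteins, was found in 7.06%, 8.53% and 4.18% of the same sets, and TAATTA, a homeodomain core, in 2.36%, 0 and 5.29%. The forkhead motif TGTTTAC was found in 2.13%, 1.55% and 3.69%, and TGCTGAC, the last of the 5 searched, in 2.99%, 2.33% and 3.81%, both on either strand. None of the 5 was in the 4 windows printed. A match is a string of letters and no evidence of binding.

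Slit diaphragm genes were higher in TRAP, with Trpc6 as the weakest case. The kidney lay below all 5 TRAP libraries for 11 of 11 genes, against 35.5% of all tested genes, and the median ratio was 18.1. Nphs1, which encodes nephrin (chromosome 7, 30458315 to 30487223, on GRCm38), stood at 2060.0, 1844, 1629, 1126 and 1426 CPM in TRAP 1 to 5 and at 13.9 CPM in kidney (95% Poisson interval 12.5 to 15.3, counting error only). TRAP 1 was highest and TRAP 4 lowest, and the lowest TRAP library was far above the kidney. Crb2, a polarity protein of the junction, was at 355, 360.1, 301, 188 and 256 CPM against 1.89 CPM. The phospholipase Plce1 was 64.6 times higher, the scaffold Magi2 30.9 times, and the nephrin relatives Kirrel and Kirrel2 18.1 and 12.2 times. The members that other epithelia also use were nearer to the kidney: the tight junction protein Tjp1 was 7.59 times higher, the giant cadherin Fat1 4.82 times and the adaptor Cd2ap 3.22 times. Cd2ap still separated in every library, with 626, 698, 612, 398 and 458 CPM against 173 CPM. The calcium channel Trpc6, a disease gene of podocytes, was close to the limit of detection in both, at 0.869 ± 0.122 CPM (SD, n = 5) in TRAP and 0.606 CPM in kidney (interval 0.353 to 0.971), and the lowest TRAP libraries lay within that interval, so that a difference was not detectable at this depth.

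Podocyte surface proteins were split. Of 9 genes 7 had the kidney below all TRAP libraries, and the median ratio was 16.9. The sialomucin Podxl, whose negative charge keeps foot processes apart, was the most abundant listed podocyte gene by count, with 12427, 11748, 8934, 6757 and 7785 CPM (chromosome 6, 31519488 to 31563981). By ratio the receptor phosphatase Ptpro led the list (129 times), and the antigen gene Thsd7a was 75.9 times higher. The natriuretic peptide receptors Npr3 and Npr1 were 32.8 and 16.9 times higher. Clic5, of the ezrin and podocalyxin complex, was 8.34 times higher and dystroglycan (Dag1) 5.42 times.

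A pair of surface genes did not follow the rest of that list. Pla2r1, the phospholipase receptor that is the main antigen of human membranous nephropathy (chromosome 2, 60417543 to 60553308), stood at 0.860, 2.98, 4.12, 2.82 and 3.40 CPM in TRAP and at 7.56 CPM in kidney (interval 6.58 to 8.65). All 5 TRAP libraries were below the kidney, by a factor of 2.42 at the mean. For Mme (neprilysin), which the brush border of the proximal tubule also carries, the kidney value of 200.2 CPM lay inside the TRAP range of 169 to 286 CPM.

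**Figure D2:**
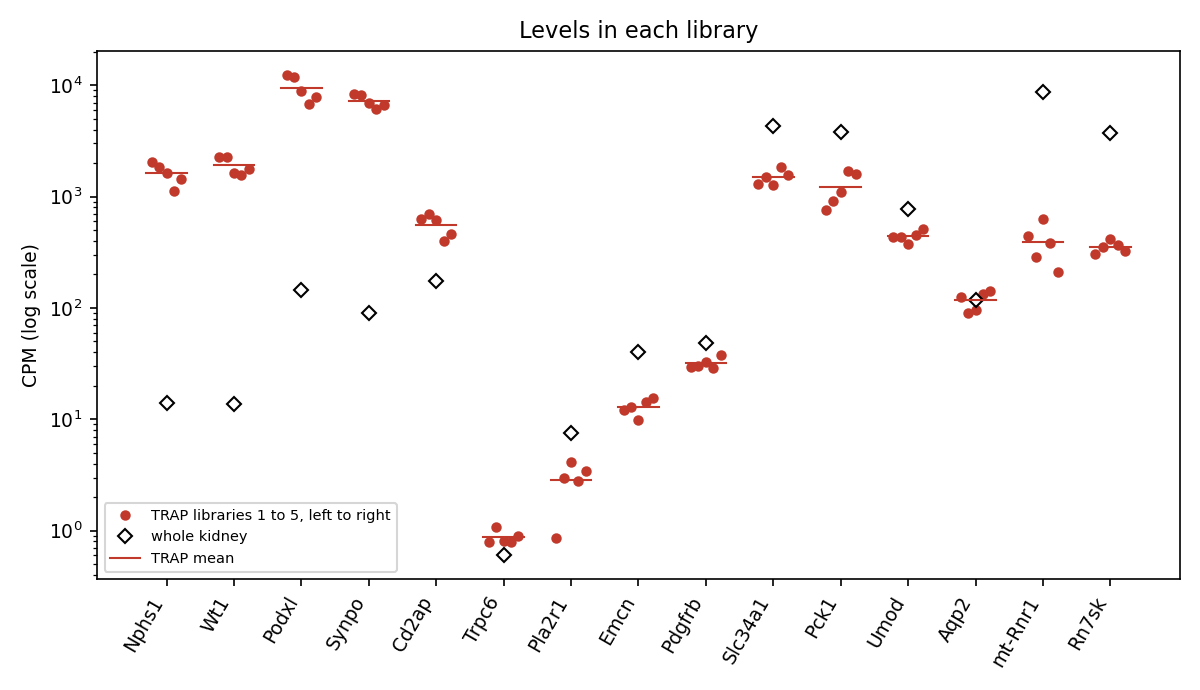
CPM on a log axis for 15 genes, with TRAP libraries 1 to 5 as filled circles from left to right, their mean as a line and the kidney library as an open diamond. For Nphs1, Wt1, Podxl, Synpo and Cd2ap the diamond lies under all circles, for Trpc6 just under them, for Aqp2 among them, and for the other 8 genes above them.

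Transcription factors of the podocyte had the highest median of the 40 lists. The kidney lay below all TRAP libraries for 8 of 8, with a median of 44.7 and a lowest value of 10.4 for Foxc1. The LIM homeodomain factor Lmx1b, the nail-patella syndrome gene, was at 607, 605, 561, 511 and 594 CPM against 4.17 CPM (interval 3.45 to 5.00). Foxd1, which also marks the precursors of renal stroma, was at 198, 216, 199.6, 183 and 196 CPM against 1.39 CPM. The median coefficient of variation over the TRAP libraries was 14.2% for the 8 factors and 12.9% for all 9138 genes with a mean of at least 10 CPM. Among the other podocyte lists it ran from 11.7% for actin regulators to 28.3% for surface proteins. The forkhead factors Foxd2 and Foxc2 were 55.2 and 36.2 times higher, and the bHLH factor Tcf21 29.4 times.

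A noncoding gene lay next to each of 3 of these factors and was high in TRAP, while 4 misc_RNA genes close to Wt1 had mean levels of at most 0.198 CPM in TRAP. Wt1os, whose annotated end lies 19 bases from Wt1 (chromosome 2, 105076538 to 105126510), stood at 27.3 ± 4.92 CPM (SD, n = 5) against 0.214 CPM, a ratio of 39.0. Foxd2os, 384 bases from Foxd2, was 44.4 times higher, and C130021I20Rik, which is antisense to the Lmx1b promoter shown above, 46.2 times. These 3 were chosen after their values were seen. The sources used here do not say whether counting used the strand, so reads of an antisense gene and its partner may be shared where they overlap.

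Regulators of the actin cytoskeleton, which holds the foot processes, covered a wide range. Kidney was below all TRAP libraries for 8 of 9 and the median was 6.22. Beside Synpo, the intermediate filament gene Nes was 80.5 times higher, at 3459, 3666, 3668, 2197 and 2898 CPM against 39.0 CPM. The formin Inf2 was 26.9 times higher and the motor Myo1e 10.5 times. Genes used in most cells had low ratios: Myh9 4.05, Actn4 3.83 and Arhgdia 1.95. For Anln, a cytokinesis gene, the kidney value of 1.61 CPM lay inside the TRAP range.

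In the basement membrane and receptor list the kidney was below all TRAP libraries for 11 of 12 genes, with a median ratio of only 3.21. Integrin alpha 3 (Itga3), the laminin receptor of podocytes, was 11.6 times higher, nephronectin (Npnt) 8.07 times and the laminin chain Lamb2 7.96 times. Of the collagen IV chains that form the mature membrane, Col4a3 was 6.34 times higher, Col4a5 4.00 times and Col4a4 3.00 times. The chain Col4a3 was already abundant in whole kidney, at 347 CPM. Nid1, a linker of the membrane, went the other way, with 33.0, 28.3, 32.1, 28.4 and 37.8 CPM in TRAP against 68.7 CPM in kidney.

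Secreted and signalling genes were higher in 10 of 10 cases, at a median of 18.1. The semaphorin Sema3g stood at 3115, 2872, 3566, 1945 and 2202 CPM against 35.6 CPM, a ratio of 75.8. The cyclin-dependent kinase inhibitor Cdkn1c was 68.1 times higher, the synaptic vesicle GTPase Rab3b 81.6 times, the plasminogen activator Plat 29.9 times and Angptl2 19.1 times. Vegfa, the growth factor that podocytes send to the glomerular endothelium, was 6.41 times higher, at 1315 ± 125 against 205 CPM. Bmp7 and Ctgf, which other kidney cells also make, were 2.37 and 2.43 times higher.

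**Figure D3:**
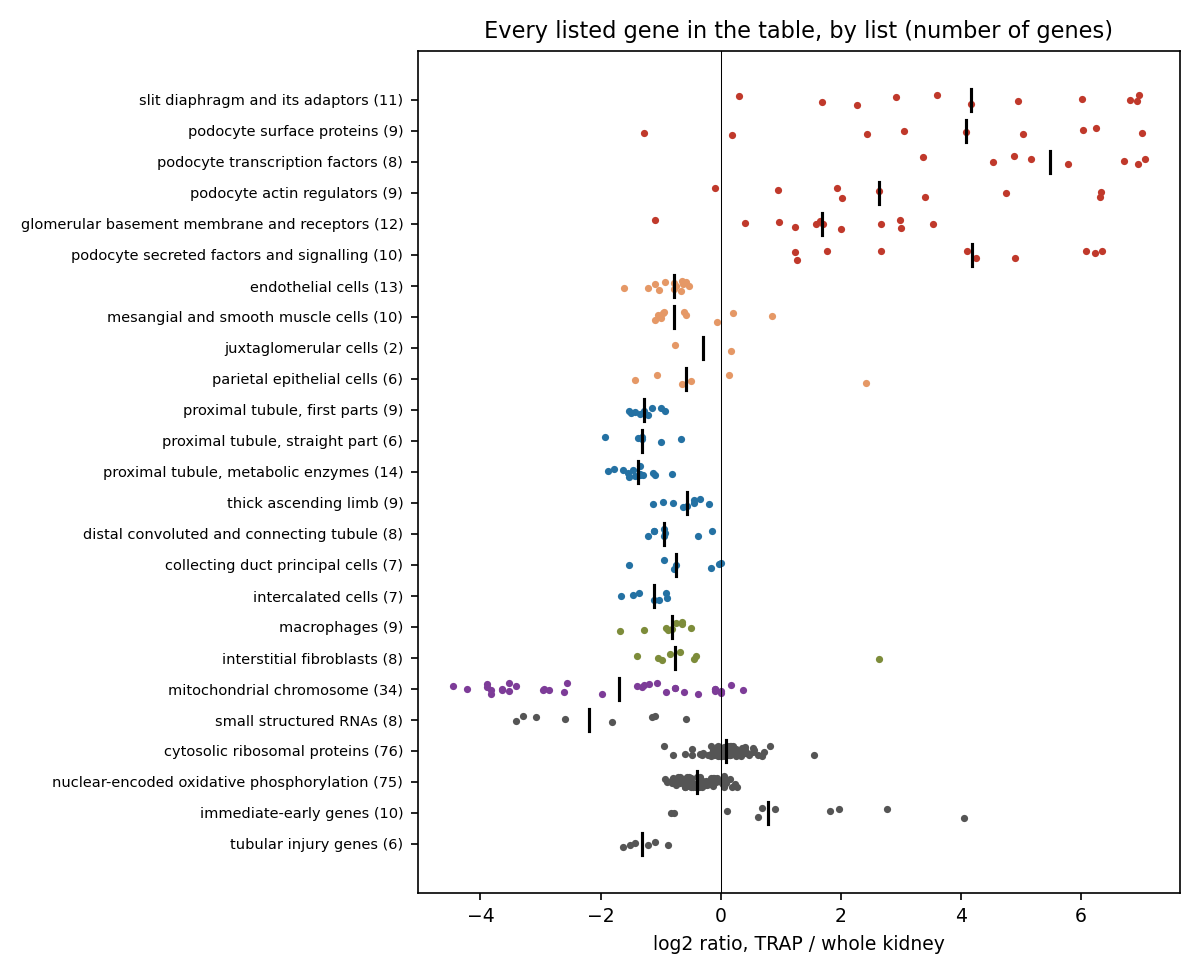
Log2 ratio of TRAP over kidney for every gene of 25 lists, 1 point a gene, with a black bar at the median and the number of genes in brackets. The medians of all 6 podocyte lists lie above 0, those of the tubule and other glomerular cell lists below 0, and single genes (Ncam1 among parietal cells, Col1a2 among fibroblasts) lie far from their own list.

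Over the 6 podocyte lists together, the kidney lay below all TRAP libraries for 55 of 59 genes and above for 2, and 41 of the 59 were at least 4 times higher. The lists were made with knowledge of earlier results from these data, so the counts describe them and do not stand as independent support. These genes took 0.5005% of the counts in kidney and 7.58, 7.29, 6.22, 4.96 and 5.48% in TRAP 1 to 5. TRAP 1 and 2 were highest and TRAP 4 lowest, yet the median ratio computed from each library alone stayed between 8.44 and 11.1.

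Among the 20 genes with the highest ratios, 9 are no members of these lists. Myom2, a protein of the muscle M band, was at 1737, 1882, 1787, 1187 and 1488 CPM against 11.8 CPM. Ddn (dendrin), found in brain and at the slit diaphragm, was 93.2 times higher. The glycosyltransferase Mgat5b, known from brain, was 99.2 times higher, at 151, 157, 79.2, 77.6 and 81.5 CPM against 0.606 CPM. The GTPase-activating proteins Arhgap28 and Srgap1 were 86.3 and 81.5 times higher, the tetraspanin Tspan2 79.4 times and the nebulin relative Nebl 77.4 times.

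The remaining members of that top group included a pair of genes known from the male germ line. Tdrd5, a tudor domain gene of germ cells (chromosome 1, 156255296 to 156303664), stood at 344, 335, 177, 153 and 132 CPM against 1.75 CPM in kidney, a ratio of 102. Prm1, a protamine that packs sperm DNA (chromosome 16, 10796326 to 10796886), stood at 75.6, 77.9, 34.1, 25.6 and 24.7 CPM against 2 counts in kidney. The plain ratio of the means was 667, with a counting interval from 185 to 5510. Its neighbour Prm3 had no count in any of the 6 libraries. Prm1 had counts in every TRAP library of the series, for instance 4.97 to 29.4 CPM in the 5 control libraries of the 24-week streptozotocin set.

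**Figure D4:**
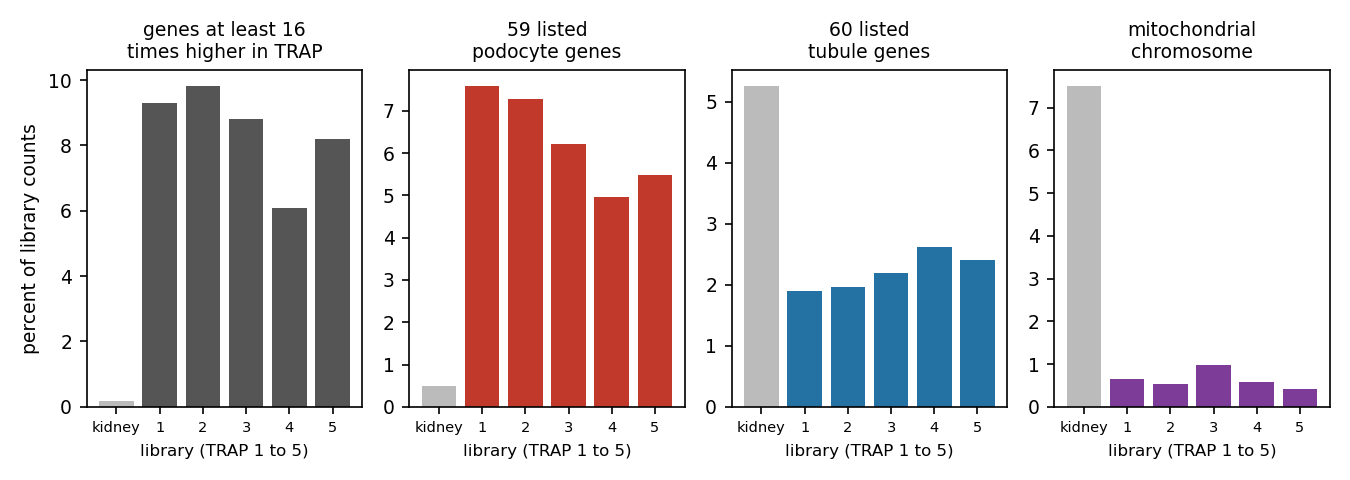
Percent of library counts in the kidney library (grey) and in TRAP 1 to 5 for 4 gene sets; every axis starts at 0 and each has its own scale. The podocyte bars run from 7.58% in TRAP 1 to 4.96% in TRAP 4, and the tubule bars run the other way, from 1.90% to 2.62%.

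Tubule genes were lower in TRAP by a modest factor and did not vanish. Of 60 listed genes the kidney was above all TRAP libraries for 54, against 33.4% of all tested genes, and below for 0. A ratio of 1/2 or less was reached by 34, and the median was 2.16 times lower. Together they took 5.25% of kidney counts and 1.90, 1.96, 2.18, 2.62 and 2.40% of TRAP counts. The libraries stood in the reverse of their order for the podocyte genes, and the part of this in any ratio was not tested.

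The proximal tubule, the bulk of the cortex, was the lowest. For the transporters of its first parts the kidney was above in 9 of 9 cases, with a median 2.42 times lower. Slc34a1 stood at 1307, 1502, 1274, 1857 and 1573 CPM in TRAP and 4336 CPM in kidney. The endocytic receptor megalin (Lrp2) was at 1632, 1698, 2105, 2822 and 2645 CPM against 5279 CPM, with TRAP 4 and 5 highest. The straight part was 2.48 times lower at the median over 6 genes and the metabolic enzymes 2.61 times over 14. In deposited FPKM, which takes gene length into account, the androgen-regulated gene Kap of the proximal tubule was at 11555 in kidney and 4696 ± 279 (SD, n = 5) in TRAP. That was still above Podxl (1737 ± 450) in the same TRAP libraries, on the FPKM scale.

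Segments further along were closer to the kidney level. The median of the intercalated cell list was 2.16 times lower (7 of 7 with the kidney above), and that of the distal convoluted and connecting tubule 1.92 times (6 of 8). It was 1.68 times for collecting duct principal cells (4 of 7) and 1.47 times for the thick ascending limb (8 of 9). The sodium chloride transporter Slc12a3 of the distal convoluted tubule was 2.32 times lower, and uromodulin (Umod) of the thick limb was at 433, 436, 376, 449.5 and 514 CPM against 768 CPM. The water channel Aqp2 of principal cells was no lower, with the kidney at 119 CPM inside the TRAP range of 89.95 to 141 CPM. Genes of tubular injury were above in kidney in 6 of 6 cases, among them Havcr1 (KIM-1, 2.85 times lower) and osteopontin, Spp1 (2.67 times lower).

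Genes listed for other cell types of the glomerulus were also mostly lower. The lists do not separate glomerular cells from endothelial and smooth muscle cells elsewhere in the kidney. Endothelial genes had the kidney above all TRAP libraries in 13 of 13 cases, and the median was 1.71 times lower. Endomucin (Emcn), a sialomucin of capillaries, was the lowest at 12.1, 12.9, 9.90, 14.2 and 15.5 CPM against 40.3 CPM, and Ehd3, which glomerular capillaries express strongly, was the least shifted (1.43 times lower). In the list of mesangial and smooth muscle cells the kidney was above for 7 of 10 genes and below for 2, and the median was 1.72 times lower. Those 2 were Tagln, at 29.9, 32.5, 35.3, 25.7 and 33.0 CPM against 17.1 CPM, and the intermediate filament Des, whose ratio of 1.159 no longer left the kidney outside the TRAP range under TMM or DESeq2 scaling. Renin (Ren1) of juxtaglomerular cells was 1.69 times lower.

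Single genes left their list. Ncam1, listed with parietal epithelial cells, was at 51.8, 40.8, 29.3, 28.3 and 24.4 CPM against 6.10 CPM, a ratio of 5.37, while Cd44 and Pax8 of the same list were 2.69 and 2.08 times lower. Col1a2, listed with fibroblasts, was at 500.3, 420, 356, 214 and 267 CPM against 55.7 CPM. Its partner chain in type I collagen, Col1a1, was at 20.6, 17.8, 24.8, 21.6 and 24.6 CPM against 39.6 CPM. The 2 chains thus stood on opposite sides of the kidney, with no overlap for either.

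Markers of macrophages and lymphocytes were low in both kinds of library. The 9 macrophage genes summed to 120 CPM in kidney and 68.2 ± 9.91 CPM (SD, n = 5) in TRAP, with the kidney above for 8 of 9. The 9 lymphocyte genes summed to 6.35 and 2.18 ± 1.03 CPM. The 8 fibroblast genes summed to 207 CPM in kidney and 432 ± 110 CPM in TRAP, where Col1a2 made up most of the sum, while their median was 1.69 times lower. The neutrophil gene S100a8 and the adipocyte gene Adipoq had no count in any of the 6 libraries.

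The lowest ratios belonged mainly to genes of the mitochondrial chromosome and to small structured RNAs. Other noncoding classes were not as low, with a median ratio of 0.807 for lincRNA genes and 1.27 for miRNA genes. Of the 34 genes of the mitochondrial chromosome the kidney was above all TRAP libraries for 30, and the median of the list was 3.23 times lower. The size of that median moved with the setting, from 1.73 times with a pseudocount of 2 CPM to 5.65 times with 0.1 CPM and 7.19 times on deposited FPKM. That median includes 19 transfer RNAs, of which 15 had too few counts to be tested. The 13 protein-coding genes were 5.91 to 14.9 times lower and the 2 ribosomal RNAs 18.8 and 22.1 times. Cytochrome oxidase subunit 1, mt-Co1, was the least shifted of the coding genes, at 1933, 1729.6, 3088, 1829.7 and 1543 CPM against 11958 CPM. All mitochondrial genes together took 7.50% of kidney counts and 0.411 to 0.990% of TRAP counts. Transfer RNAs are far shorter than the 200 bp fragments of the library protocol, so their counts say little.

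Of 8 small structured RNAs the kidney was above all TRAP libraries for 7, and the median was 4.58 times lower. Rn7sk, the 7SK RNA that restrains transcription elongation in the nucleus (chromosome 9, 78175303 to 78175633), stood at 304, 355, 413, 366 and 323 CPM against 3749 CPM, 10.6 times lower. Rpph1, the RNA of ribonuclease P, was 8.42 times lower and Rn7s1, of the signal recognition particle, 9.76 times. The nuclear RNA Malat1 was 2.46 times lower, a smaller shift, and for Neat1 the kidney lay inside the TRAP range. The 18S ribosomal RNA gene took 8.04% of the counts in kidney and 3.23 to 8.97% in TRAP.

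Housekeeping classes had median ratios near 1, with the nuclear genes of oxidative phosphorylation shifted furthest. The 76 cytosolic ribosomal protein genes had a median ratio of 1.06, a direction that turned with totals that leave out 18S and mitochondrial genes (0.958). The highest of them was Rpl10a, the next Rpl21 at 1.78. The 75 nuclear genes of oxidative phosphorylation had a median 1.31 times lower. The kidney was above all TRAP libraries for 52 of them and below for 1, against 33.4% and 35.5% of all tested genes. Their sum was 12338 CPM in kidney and 8305 to 9270 CPM in TRAP. Mitochondrial ribosomal proteins were 1.11 times lower at the median.

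Nuclear protein-coding genes that were much lower in TRAP were few. The lowest, listed after their values were seen, were the cytochrome P450 Cyp2a5, at 18.2, 21.3, 28.8, 33.6 and 48.7 CPM against 183 CPM (5.99 times lower), and Angptl4, an inhibitor of lipoprotein lipase (4.99 times lower). Ceacam2, Gm11128 and Clec2d came next, 4.97, 4.77 and 4.598 times lower. The pyruvate dehydrogenase kinase Pdk4 followed, 4.596 times lower. Angptl4 and Pdk4 are known targets of the fasting regulator PPAR alpha, a link that was not tested here.

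Genes of the early stress response differed from one another. Of 10 immediate-early genes the kidney was below all TRAP libraries for 6 and above for 2, and the median ratio was 1.73. Fosb was at 60.004, 26.5, 55.4, 6.78 and 20.2 CPM against 1.57 CPM, and Jun at 206, 205, 208, 182 and 171 CPM against 49.2 CPM, so that Jun varied far less than Fosb. The orphan receptors Nr4a1 and Nr4a3, among the 10 most variable genes, were high in TRAP but in different libraries. Nr4a1 was at 171, 105, 689, 160.0 and 306 CPM against 8.03 CPM, with TRAP 3 highest. Nr4a3 was at 301, 179, 107, 22.7 and 30.7 CPM against 1.85 CPM, with TRAP 1 highest. For the heat shock gene Hspa1b the kidney value of 94.8 CPM lay inside the TRAP range, since TRAP 4 alone stood at 299.7 CPM.

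By TRAP mean, the most abundant gene at least 4 times higher in TRAP was no podocyte marker. Pigr, the receptor that carries polymeric immunoglobulin across epithelia (chromosome 1, 130826684 to 130852249), stood at 3161, 10680.0, 16046, 4875 and 18549 CPM against 350 CPM in kidney (interval 343 to 357). Podxl stood above Pigr in TRAP 1, 2 and 4, at 12427, 11748 and 6757 CPM. The ratio of the means of Pigr was 30.5, and its coefficient of variation over TRAP was 63.1%. Its neighbour Fcamr, also an immunoglobulin receptor gene, was 2.56 times lower. Across the other control TRAP libraries Pigr ranged from 751 to 151890 CPM in the 4 eNOS-/- controls at 6 months. It ranged from 22323 to 43696 CPM in the 4 controls of the 3-week streptozotocin set and from 586 to 43208 CPM in the 5 of the 24-week set, so that it spread widely in most groups.

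**Figure D5:**
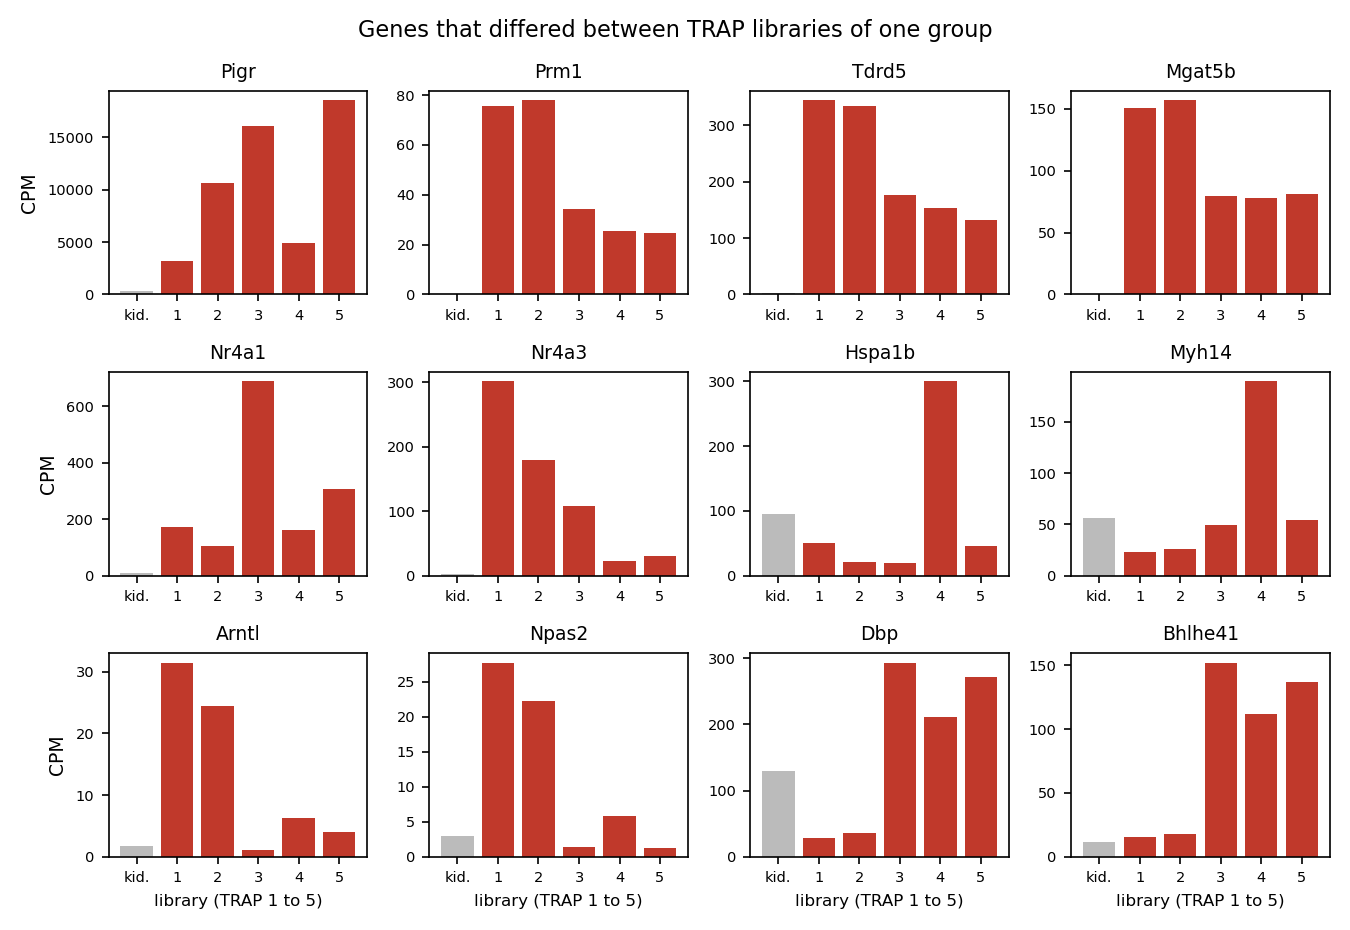
CPM in the kidney library (grey) and TRAP 1 to 5 (red) for 12 genes, each on its own linear axis from 0. Prm1, Tdrd5, Mgat5b, Arntl and Npas2 were highest in TRAP 1 and 2, Dbp and Bhlhe41 were lowest there among the TRAP libraries, Hspa1b and Myh14 were highest in TRAP 4, and Pigr followed neither order.

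Some clock genes differed strongly between the TRAP libraries. Arntl (BMAL1), the positive arm of the circadian clock, was at 31.5, 24.5, 1.11, 6.23 and 3.99 CPM, with the kidney at 1.78 CPM inside that range. Its relative Npas2 was at 27.7, 22.2, 1.36, 5.79 and 1.23 CPM, with the kidney at 3.00 CPM. The output gene Dbp, chosen after its values were seen like the genes that follow, ran the other way at 29.2, 36.7, 293, 212 and 271 CPM, with the kidney at 130 CPM. Bhlhe41 was at 15.2, 18.2, 152, 112 and 137 CPM against 11.9 CPM. Repressors of the clock lay on both sides of the kidney. It was above all TRAP libraries for Per2 and Ciart, by 2.05 and 4.31 times, and below them for Per1, Cry1 and Nr1d1, with ratios of 2.41, 3.32 and 1.65. For Per3 it lay inside the range. The labels do not say at what hour kidneys were taken. TRAP 1 and 2, highest for Arntl and Npas2 and lowest for Dbp and Bhlhe41, also had the highest podocyte and the lowest tubule shares, and the part of this in any ratio was not tested.

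Genes without a single kidney count were weak in TRAP. The highest was Spon2, a secreted matrix protein, at 14.5, 10.045, 11.7, 4.96 and 3.01 CPM. Its mean was 82.5 times the kidney floor of 3 counts, 0.107 CPM (ratio 18.7). The Poisson interval of its kidney count reached 0.132 CPM, above that floor, so 82.5 is no lower bound. A long noncoding RNA, RP23-15G1.1, came next at 6.65 ± 1.56 CPM, 62.1 times the floor (ratio 14.3). The ankyrin repeat gene Sowahd followed at 5.88 ± 0.790 CPM (SD, n = 5), 55.0 times the floor (ratio 12.8). The Y-linked gene Ddx3y was at 40.8 CPM in kidney and 57.7 to 95.8 CPM in TRAP, and Xist had at most 0.0493 CPM in any of the 6.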

How the data were processed

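The table deposited by the authors holds, for each of 32108 genes, a raw count and an FPKM value in every one of 37 libraries. Tools listed in the submitters' processing notes are STAR, featureCounts 1.15.2, FastQC and cutadapt 1.16. The notes name mm9. However, 99.981% of the 31871 genes found in mouse GENCODE (release 21) overlapped their GRCm38 position, and positions are therefore given on GRCm38. Per the labels' protocols, a NuGEN Ovation kit was used for all 6. Deposited FPKM equalled the count scaled by length and total, to within 0.001, in 100% of cases.

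From the counts, CPM was computed with Python 3.11.15, numpy 2.4.6 and pandas 2.3.3. Ratios use CPM plus 0.5 on the mean of 5 TRAP libraries, and genes are counted where the mean of both kinds is at least 1 CPM. A gene is called only if the kidney lies outside all 5 TRAP libraries. The kidney count has an exact 95% Poisson interval (scipy 1.17.1), and the floor is 3 counts. Reads carry no molecular identifiers, so intervals cover counting error only. Alternatives used edgeR 4.0.16 and DESeq2 1.42.0 scaling in R 4.3.3 for library sizes only, other pseudocounts and filters, the median of TRAP, FPKM and leaving out libraries. The steps were tested on simulated data.

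The comparison and the 40 lists were chosen with earlier results of these data known. Lists are described over all members in the table. Genes named are list members, the 20 highest and 20 lowest ratios at a mean of at least 10 CPM, the 15 highest FPKM, the genes with no kidney count, the 10 most variable, and fixed label checks. Others are said to be chosen after their values were seen. Some genes that these rules name are not reported here. Names follow the deposited table.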

Additional observations from a re-analysis of the deposited data

Results flagged for a closer look

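Of 353 genes and list sums checked over the 5 TRAP libraries, 15 had 1 library set apart from the others by more than 0.71 of the whole range. For independent, normally distributed values chance sets apart about 1 in 20, and 15 of 353 does not exceed that share. The genes are not independent, however, and some were checked because they varied most over these same libraries. The tally therefore gives no verdict on chance. The sums also share genes with the single-gene checks. The items below are therefore a description of single libraries only. TRAP 4 stood high for the heat shock genes Hspa1b (299.7 CPM, the next 51.0) and Hspa1a (61.0 CPM, the next 23.3), for the myosin Myh14 (190 CPM, the next 54.1) and for drebrin, Dbn1 (36.6 CPM, the next 11.5), and low for the summed cell cycle genes (29.9 CPM, the next 37.5). TRAP 4 also had the highest 18S share of the TRAP libraries (8.97%) and the lowest podocyte share (4.96%), and the part of these in the values was not tested.

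TRAP 5 stood high for the slit diaphragm gene Kirrel2 (16.9 CPM, the next 7.58) and for several genes of the distal nephron. These were Egf (738 CPM, the next 581), Calb1 (194 CPM, the next 143) and Klk1 (309 CPM, the next 266). The summed thick ascending limb genes (1869 CPM, the next 1596) and the summed distal convoluted and connecting tubule genes (1031 CPM, the next 874) stood apart in the same library.

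In TRAP 3 mt-Co1 stood high (3088 CPM, the next 1933), as did Upk1b (1.21 CPM, the next 0.561). In TRAP 1 Lyz2 was low (5.79 CPM, the next 8.03). Sox10 was counted in TRAP 2 alone (0.277 CPM), at a few counts.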

How the results depend on the processing

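No paired analysis was possible because the single kidney library carries no pairing with the TRAP libraries. TMM and DESeq2 scaling mattered little. These size factors left all 4 counts of genes within 1.5 times of those reported. All 3 list medians stayed on the same side and within their SD over the TRAP libraries. Totals that leave out 18S and mitochondrial genes mattered more, and turned the 2-fold split to 1259 genes higher and 1876 lower. The pseudocount decided the low end. With 0.1 CPM, 108 genes were at least 4 times lower and the mitochondrial list was 5.65 times lower (log2 -2.50). With 2 CPM, 34 genes were at least 4 times lower, 740 at least 2 times lower, and the mitochondrial list was 1.73 times lower (log2 -0.79). That list was 3.70 times lower (log2 -1.89) with the median of TRAP, 7.19 times (log2 -2.85) on FPKM and 3.62 times (log2 -1.86) with totals that leave out 18S and mitochondrial genes, where the tubule median was 2.39 times lower (log2 -1.26) and the median of all genes shifted to -0.12 on the log2 scale. Near-zero log2 medians changed sign. That of cytosolic ribosomal proteins was -0.062 with those totals and -0.0067 without TRAP 1 and 2 (0.0883 as reported). That of the pair of neutrophil genes, near 0 CPM, was -0.2201 with the median of TRAP and -0.0117 without TRAP 1 and 2, and leaving out 1 library gave -0.0584 (without TRAP 2) to 0.1257. Leaving out 1 TRAP library at a time gave 598 to 651 genes at least 4 times higher, 57 to 70 at least 4 times lower, and podocyte medians of 10.1 to 10.9. That, or leaving out TRAP 1 and 2 together (chosen after seeing the data), kept every count of genes within 1.5 times. Of 267 named genes with the kidney outside the TRAP range, Des and Hba-a2 fell inside it under TMM and DESeq2 scaling, and Lamc1, Des and Gm25911 with the totals without 18S and mitochondrial genes.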
